A study of Caenorhabditis elegans with 2 samples.

Results

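Neuropeptide genes were taken as the protein-coding genes of Caenorhabditis elegans whose Ensembl name starts with flp- (FMRFamide-like peptides), nlp- (neuropeptide-like proteins) or ins- (insulin-like peptides). This gave 140 of 19973 protein-coding genes, of which 31 were flp, 71 nlp and 38 ins genes. Of these, 34 lie on the X chromosome (13 flp, 19 nlp and 2 ins genes) and 106 on autosomes. ISW-1, the ATPase of the worm's ISWI-type nucleosome remodelling complexes, was located by ChIP-seq in 2 biological replicates of 1 condition. Whole L1 larvae at 6 hours, synchronised by bleaching and starvation, carried the integrated transgene wgIs181, which holds isw-1::TY1 EGFP 3xFLAG together with unc-119(+), in an unc-119(ed3) background. The tagged protein was precipitated with an antibody against GFP from sonicated chromatin. The labels do not say whether the untagged isw-1 gene was still active, and no untagged group was analysed here. Chromatin of the whole animal was used, so a peak present in few cells and weak occupancy in many cells cannot be told apart, and no cell type can be assigned to a peak.

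Neuropeptides are short signalling molecules cut from longer precursor proteins. In neurons and some other secreting cells, precursors enter dense core vesicles, proprotein convertases and carboxypeptidases cut them at basic residues, and many of the products are amidated before release. FMRFamide-like and neuropeptide-like products act mostly on G-protein-coupled receptors, whereas insulin-like peptides act through the receptor tyrosine kinase DAF-2 and adjust growth, dauer arrest, lifespan and learning. The precursors translated from the Ensembl coding sequences showed the features by which the families are known. In 29 of 31 flp precursors the residues RFG were followed by K or R, the form of the amidation and cleavage signal known for this family. The median was 2 such sites and the most, 9, were in flp-13. None of the 71 nlp or 38 ins precursors held RFG followed by K or R. Amidation signals after other residues were not searched. All 38 ins precursors had at least 6 cysteines, as the disulphide-linked insulin fold needs, against 0 of 31 flp and 0 of 71 nlp precursors. The median precursor length was 95 residues for flp, 88 for nlp and 103 for ins genes.

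The sequences below are from the RefSeq genome of the WBcel235 assembly, which is ce11. The first is the plus strand of the whole ISW-1 peak at ins-39, the strongest peak in the promoter window of any neuropeptide gene, at chrX:1344930-1345144. The next pair are 201 bases of the plus strand centred on peak summits that lay nearest to a neuropeptide gene's start among coding genes but beside a non-coding RNA gene. They are chrII:5543473-5543673, beside ins-13 and the spliced-leader RNA gene sls-2.2, and chrX:12665112-12665312, beside nlp-76 and a tRNA gene. None of the 3 holds any of the 8 motifs searched, so none has capitals.
ins-39 peak: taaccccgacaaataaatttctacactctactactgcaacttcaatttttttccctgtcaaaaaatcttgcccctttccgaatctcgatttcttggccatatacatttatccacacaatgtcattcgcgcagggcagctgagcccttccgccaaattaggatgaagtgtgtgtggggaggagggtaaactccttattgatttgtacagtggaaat
ins-13 and sls-2.2 summit: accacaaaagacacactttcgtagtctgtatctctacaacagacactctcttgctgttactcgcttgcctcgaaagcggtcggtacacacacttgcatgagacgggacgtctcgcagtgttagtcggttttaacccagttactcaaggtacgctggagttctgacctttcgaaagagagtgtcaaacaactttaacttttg
nlp-76 and tRNA summit: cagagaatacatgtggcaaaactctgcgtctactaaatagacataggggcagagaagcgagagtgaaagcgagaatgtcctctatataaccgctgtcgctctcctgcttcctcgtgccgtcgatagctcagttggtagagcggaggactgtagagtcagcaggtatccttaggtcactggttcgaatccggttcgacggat
The following 30-base windows are set around copies of the GC-rich sequence GGGCGG, marked in capitals, just upstream of neuropeptide gene starts. They are shown because this sequence had the largest difference in percentage points between neuropeptide promoters and all promoters among the 8 motifs, as described further on, and these examples were chosen after the copies were seen. Each is printed on the strand that reads GGGCGG, with its interval and that strand after the name.
ins-39 (chrX:1344583-1344612, minus): atgagcccatGGGCGGagcaaaattacaga
ins-3 (chrII:5990809-5990838, plus): aatacagaatGGGCGGagaaaagaaattgc
ins-4 (chrII:5996260-5996289, minus): cttatcagatGGGCGGagttcatctggagg
ins-11 (chrII:5556660-5556689, minus): aagcgaatcaGGGCGGagtttcctggttgt
ins-12 (chrII:5554523-5554552, minus): ggagggacaaGGGCGGagaaatagagtgat
ins-20 (chrII:6010773-6010802, plus): accgtgaactGGGCGGagttctgatagtcg
ins-22 (chrIII:10026228-10026257, minus): agtttcacatGGGCGGagcctcgggtttca
ins-23 (chrIII:10028177-10028206, minus): agtacaggatGGGCGGagagttgtattgta
flp-9 (chrIV:12757594-12757623, plus): gccttgatggGGGCGGagtcctgagagaga
flp-9 (chrIV:12757631-12757660, plus): gcacacgtatGGGCGGagtctgagcacaca
flp-14 (chrIII:12910450-12910479, minus): acttcaaaatGGGCGGagctcggtgttgaa
nlp-21 (chrIII:11393311-11393340, plus): agagcaaaagGGGCGGagctagagcaagga

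A gene was counted as having ISW-1 at its promoter when the summit of a peak fell within a window that begins 1000 bp before its outermost start and ends 500 bp after it. The main set was the authors' conservative thresholded list of 2143 peaks reproducible between replicates, whose signal values (the authors' enrichment score for each peak) ran from 37.5 to 2624 with a median of 189. In that set 2 of 140 neuropeptide genes had a summit, ins-39 and nlp-4, a share of 1.43% (95% Wilson interval 0.393 to 5.06%), against 1997 of 19973 protein-coding genes, or 10%. The intervals cover the number of genes only. By family, 0 of 31 flp genes had a summit (upper bound 11.0%), 1 of 71 nlp genes (1.41%) and 1 of 38 ins genes (2.63%), against the same 10% of all protein-coding genes. The flp interval and the ins interval (0.466 to 13.5%) both hold the share of all genes, so the number of genes in either family cannot show a difference.

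The low count was seen in every thresholded list. The other thresholded list of the series held summits for the same 2 genes (1.43%), against 10.2% of protein-coding genes. Replicate 1 alone also held both (1.43%), against 9.82%. Replicate 2 alone held ins-39 and not nlp-4 (0.714%), against 8.60%. Depth is unknown for these files, which carry no read counts.

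**Figure D1:**
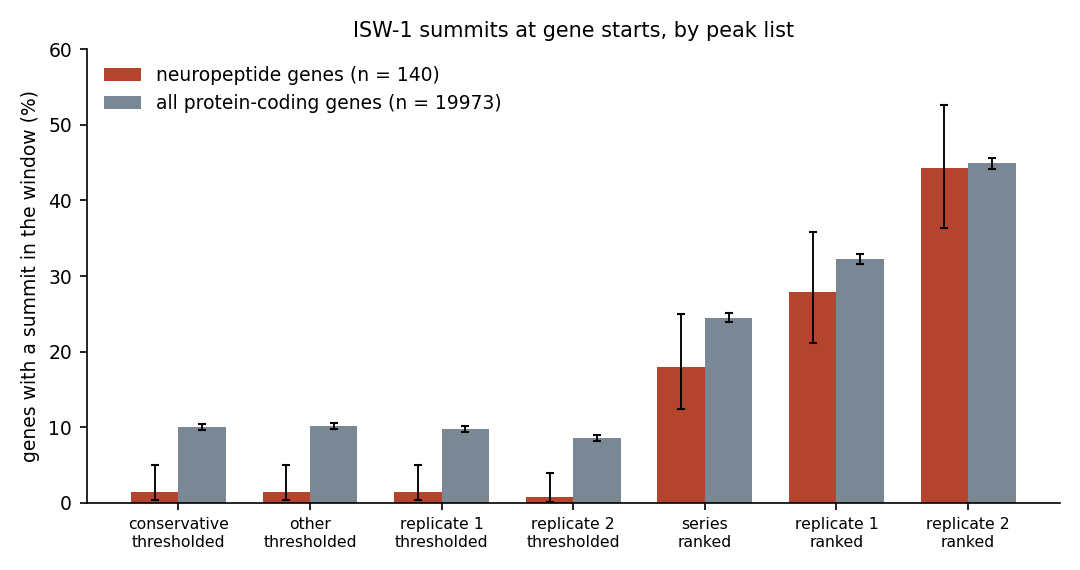
Share of genes (%, y axis) with an ISW-1 summit from 1000 bp upstream to 500 bp downstream of the start in each of 7 peak lists (x axis), for 140 neuropeptide genes (red) and 19973 protein-coding genes (grey), with 95% Wilson intervals. Neuropeptide genes lie between 0.714% and 1.43% in the 4 thresholded lists, against 8.60 to 10.2% of all genes, and come within 1 percentage point of all genes in the ranked list of replicate 2 (44.3% against 44.9%).

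On the X chromosome 1 of 34 neuropeptide genes had a conservative summit (2.94%, interval 0.521 to 14.9%), against 159 of 2731 protein-coding genes on X, or 5.82%. On autosomes 1 of 106 had one (0.943%, interval 0.167 to 5.15%), against 1838 of 17242, or 10.7%. With 34 genes on X, the interval holds the share of all X genes, while the autosomal interval lies below the share of all autosomal genes. The difference between the X-linked and autosomal neuropeptide genes was not tested, and each share rests on 1 gene with a summit.

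The insulin-like gene ins-39 (X:1343758-1344421, minus strand) had the strongest promoter peak of the family. Its summit, X:1345040, lay 619 bp upstream of the start. The signal value was 330 in the conservative list, the 523rd highest of 2143 peaks. In replicate 1 it was 209, rank 530 of 2090, with the summit 628 bp upstream, and in replicate 2 it was 122, rank 513 of 1756, with the summit 614 bp upstream. The peak thus held nearly the same rank and place in both replicates, and its global irreproducible discovery rate (IDR, the expected share of irreproducible peaks at or above that rank) was 1e-05 in each ranked list. Signal values in different lists are on different scales and were not compared with each other. Among the 1997 protein-coding genes with a summit the quartiles of signal were 147, 232 and 390, so ins-39 lay between the median and the upper quartile. The summit counted for no other protein-coding gene, and the next one upstream, F56C3.3, lay 13349 bp from the ins-39 start. The 201 bases around the summit had a GC content of 42.3%, against a median of 43.8% over all 2143 conservative summits.

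The neuropeptide-like gene nlp-4 (I:10517321-10518055, minus strand) had a weaker and less repeatable promoter peak, at I:10517908-10518283. The summit lay 41 bp upstream of its start with a signal of 115 in the conservative list, rank 1747 of 2143. In replicate 1 the signal was 78.4, rank 1692 of 2090, at 38 bp upstream. In replicate 2 the peak reached only the ranked list, with a signal of 37.8 at 89 bp upstream and a global IDR of 0.071. The same summit lay 283 bp upstream of exos-3, which encodes a subunit of the RNA exosome and is transcribed away from nlp-4, so the peak cannot be given to either gene. A stronger peak flanked nlp-4 on its other side. Its summit was 99 bp past the 3′ end and 833 bp downstream of the start, outside the window, with a signal of 641 (rank 154) in the conservative list, 417 in replicate 1 and 226 in replicate 2. That summit lay 72 bp upstream of the small nucleolar RNA gene F59C6.15.

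Outside the promoter window, several peaks, some of them strong, lay near neuropeptide genes, named here after their values were seen. For 5 of the 2143 conservative summits the nearest protein-coding start was that of a neuropeptide gene. They were those of ins-39 and nlp-4 and the peaks beside ins-13, nlp-40 and nlp-76. That is a smaller share of summits than the 140 neuropeptide genes make of the 19973 protein-coding genes. The peak beside ins-13 had a signal of 1040 (rank 47), 620 in replicate 1 and 405 in replicate 2. Its summit lay 1291 bp downstream of the ins-13 start, but only 25 bp upstream of sls-2.2, which encodes an SL2 spliced-leader RNA. The peak beside nlp-40, whose product is secreted by the intestine and times the defecation motor program, had a signal of 893 (rank 71), 533 in replicate 1 and 361 in replicate 2. It lay 188 bp past the nlp-40 3′ end and 5530 bp from its start. On its other side, the 3′ end of rcor-1, a gene on the opposite strand, lay 459 bp away. The peak beside nlp-76 was weaker, with a signal of 142, rank 1484 (89.1 in replicate 1, absent from the thresholded list of replicate 2). Its summit was 1309 bp upstream of the nlp-76 start. It overlapped a tRNA gene and nhr-17, a nuclear hormone receptor gene.

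Counting from the whole gene and not the start alone, 7 of 140 neuropeptide genes (5.00%) had a conservative summit within 1 kb of the gene, against 2693 of 19973 (13.5%). None of the 140 had one inside the gene, against 435 (2.18%) of all protein-coding genes, though the median neuropeptide gene spanned 888 bp, against 2027 bp for all protein-coding genes. The 3 genes not yet named were nlp-15, flp-16 and ins-37. The summit past the end of nlp-15 had a signal of 653 and lay 36 bp upstream of smu-1, a splicing factor gene. The summit past the end of flp-16 had a signal of 205 and lay 122 bp upstream of romo-1, which encodes a mitochondrial protein. The summit past the end of ins-37 had a signal of 297 and lay 57 bp upstream of the non-coding RNA gene F08G2.13. Each of these 3 summits was in the thresholded list of both replicates. Of these 7 genes, ins-39 alone had a summit upstream of its start in the thresholded lists of both replicates.

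Across all 140 genes the nearest conservative summit lay at a median of 21746 bp from the start, against 17737 bp for all protein-coding genes, and within 5 kb for 20 genes (14.3%), against 22.8%. At 50 kb the order was the other way, with 83.6% of neuropeptide genes and 80.1% of all protein-coding genes having a summit within that distance.

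**Figure D2:**
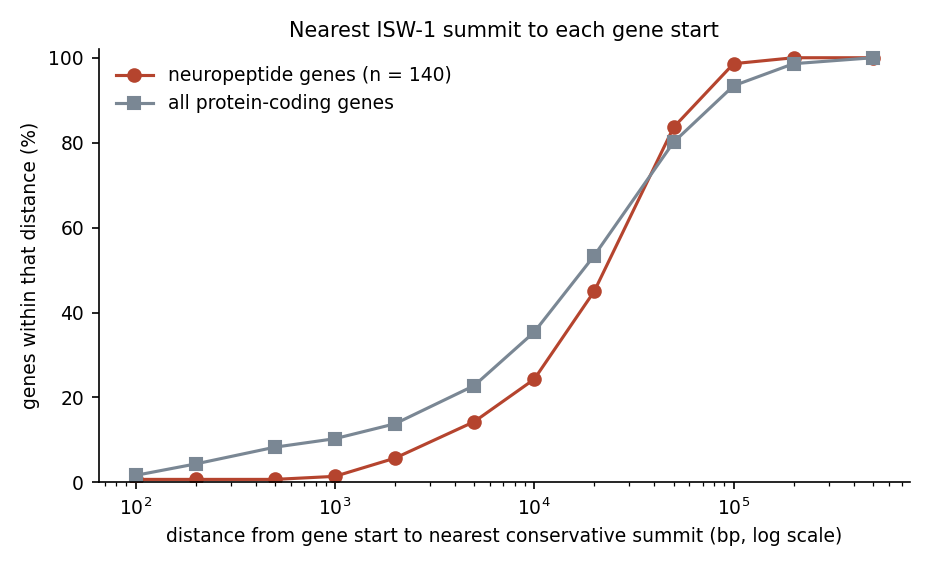
Share of genes (%, y axis) whose nearest conservative summit lies within the distance on the x axis (bp, log scale), for 140 neuropeptide genes (red circles) and all protein-coding genes (grey squares). At 1000 bp the shares are 1.43% and 10.3%, at 5000 bp 14.3% and 22.8%, and the lines cross between 20000 and 50000 bp.

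With no threshold, neuropeptide genes were closer to other genes. The ranked list still holds the peaks that passed, so its shares include the 2 neuropeptide genes and 1997 protein-coding genes with a conservative summit. These shares alone therefore do not show whether fewer neuropeptide genes had a weak peak, and counts without the genes that passed are given below. In the ranked list from which the conservative list was taken (11648 peaks, median signal 48.9), 25 of 140 neuropeptide genes had a summit in the window (17.9%, interval 12.4 to 25%), against 24.5% of protein-coding genes. These were 7 flp genes (22.6% of the family), 13 nlp genes (18.3%) and 5 ins genes (13.2%). On X 7 of 34 (20.6%) had one, against 21.4% of all X genes, and on autosomes 18 of 106 (17.0%), against 24.9%. Most ranked peaks at neuropeptide genes were weak. Of genes with a ranked summit, 2 of 25 neuropeptide genes (8.0%) passed the authors' threshold, against 40.9% of all protein-coding genes. The median of the highest signal per gene was 49.2 at neuropeptide genes and 71.8 at all protein-coding genes, and the median global IDR was 0.608 and 0.191. The 23 neuropeptide genes that did not pass had signals from 37.6 to 64.8 and global IDR values from 0.0992 to 0.787. No peak of the conservative list had a global IDR above 0.00997. With the genes that passed left out, weak peaks were not rarer at neuropeptide genes. Such a peak was at 23 of the 140, a total that still includes the 2 that passed. Of the 17976 protein-coding genes without a conservative summit, a ranked summit was at 250 of 1390 with GGGCGG in the promoter. It was at 2638 of the 16586 without that motif (15.9%). The difference was not tested.

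**Figure D3:**
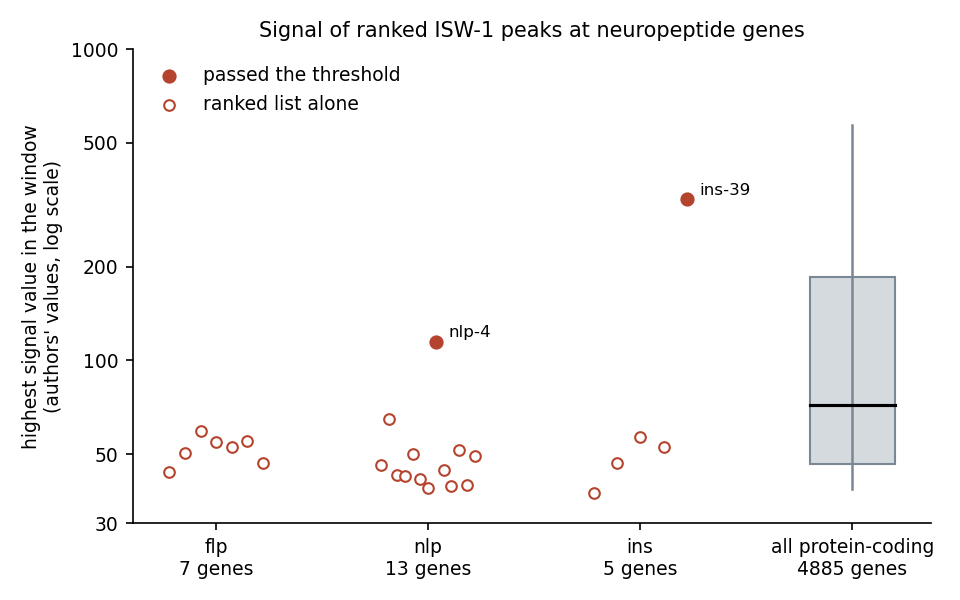
Highest signal value (authors' values, log scale) of a ranked peak in the promoter window for each neuropeptide gene that had one, by family, with filled circles for genes that passed the threshold; the box and line at the right give the quartiles and the 5th to 95th percentiles over 4885 protein-coding genes. Only ins-39 (330) and nlp-4 (115) lie above 64.8, and 23 genes lie at or below it, under the median of 71.8 over all genes. That median includes the 1997 genes that passed the threshold.

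In that ranked list, the 10 members with the highest signal below the threshold came from all 3 families. The highest was nlp-14, an orcokinin-like precursor gene on X, with a signal of 64.8 at 457 bp downstream of its start (33.6 in replicate 1 and 26.3 in replicate 2). The flp gene flp-22 followed with 59.3 at 674 bp upstream (43.6 and 18.3 in replicates 1 and 2). The insulin-like gene ins-33 had 56.6 at 58 bp downstream (36.6 and 19.7). All 3 summits lay within 100 bp of each other across replicates. The X-linked gene flp-3, whose peptides act in male mating behaviour, had 55.1 at 404 bp upstream (29.5 and 27.5). The ranked summit of flp-24, whose product acts in the ALA neuron during stress-induced sleep, had 54.7 at 727 bp upstream (37.5 and 25.8) and the lowest global IDR of the 23, 0.0992. Signals of 52.9 at flp-27, 52.7 at ins-35, 51.6 at nlp-7, 50.5 at flp-15 and 50 at nlp-21 completed the 10. Of these, nlp-7 is known for inhibiting egg laying, and its summit lay 398 bp upstream (31.7 in replicate 1 and 26.6 in replicate 2). At flp-15 the window held 1 summit in replicate 1, 686 bp upstream, and 2 in replicate 2, of 19.1 at 60 bp downstream and 16.4 at 843 bp upstream. The remaining 13, named after their values were seen, were flp-14, flp-34, ins-1, ins-17 and 9 nlp genes (nlp-1, nlp-16, nlp-20, nlp-24, nlp-26, nlp-48, nlp-67, nlp-76 and nlp-79), with signals from 37.6 at ins-1, whose peptide opposes DAF-2 signalling, to 49.2 at nlp-79. The series' second ranked list, from which the other thresholded list was taken, held a summit at 28 neuropeptide genes (20%), against 24% of protein-coding genes. There nlp-33, which had no summit in the window in the first ranked list, had the highest signal of the members that did not pass, 72.0 at 59 bp downstream of its start. Its global IDR was 0.285 there and 0.0147 in replicate 1 (signal 55.7), and the ranked list of replicate 2 held no summit in its window.

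For position, only the ranked summit of highest signal in each gene's window was counted. This summit lay upstream of the start at all 7 flp genes, at a median of 674 bp. It lay upstream at 2 of 5 ins genes and 8 of 13 nlp genes. A second, weaker ranked summit at flp-15 (44.7) lay 65 bp downstream of its start. Over the 25 neuropeptide genes 68.0% of the highest summits lay upstream, at a median position of 152 bp upstream. For all protein-coding genes with a ranked summit it was 82.0% and 221 bp upstream. The window reaches 1000 bp upstream and 500 bp downstream, so summits spread evenly along it would also lie mostly upstream. The genes compared include the 1997 with a conservative summit. Position was therefore described and not tested, and the family counts are small.

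The ranked lists of the single replicates showed how far these weak peaks repeat. Replicate 1 (18612 peaks) had a summit at 39 of 140 neuropeptide genes (27.9%), against 32.3% of protein-coding genes. Replicate 2 (31134 peaks) had one at 62 (44.3%), against 44.9%. In replicate 2 the shares by family were 61.3% of flp (interval 43.8 to 76.3%), 38.0% of nlp (27.6 to 49.7%) and 42.1% of ins genes (27.9 to 57.8%). These intervals overlap and all hold the share of all genes, and the difference between families was not tested. Autosomal flp genes had a summit there at 15 of 18 (83.3%, interval 60.8 to 94.2%), against 45.3% of autosomal genes. For flp genes on X it was 30.8%, against 42.3% of X genes. Replicate 1 had the opposite order. A summit was at 27.8% of autosomal flp genes (interval 12.5 to 50.9%), against 32.7% of autosomal genes. It was at 46.2% of X-linked flp genes (interval 23.2 to 70.9%), against 29.7% of X genes. Both of these intervals hold the share of all genes. Both replicates had a summit at 26 neuropeptide genes (18.6%), against 22.4%. It was in replicate 1 alone at 13 genes (9.29%, against 9.89% of all genes) and in replicate 2 alone at 36 (25.7%, against 22.5%), and 65 genes (46.4%, against 44.3% of all genes) had none in any list. The summits of highest signal in the 2 replicates lay within 100 bp of each other at 13 of the 26 genes (50%), against 68.4% of the 4474 protein-coding genes with a summit in both, and the median distance was 145 bp against 39 bp. With the closest pair of summits in the window in place of the highest, it was 14 of the 26 (53.8%), against 72.4%. Over the 26 genes the replicates' signal values did not run together (Spearman rho 0.00), whereas over the 4474 genes rho was 0.86. These correlations are across genes, which are not independent replicates. The middle of the 26 was weak, with quartiles of 27.8, 33.6 and 35.9 in replicate 1 and 15.5, 19.2 and 26.2 in replicate 2, against 29.9, 51.2 and 131 in replicate 1 and 18.7, 30.3 and 73.6 in replicate 2 over the 4474 genes. Above them, ins-39 and nlp-4 had the highest values of the 26 in both replicates (209 and 122 at ins-39).

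Neuropeptide genes also differed from other genes in their surroundings, which also go with having a summit. The median gap to the next protein-coding gene upstream was 2522 bp for neuropeptide genes, 5185 bp for the flp genes among them, 936 bp for all protein-coding genes and 577 bp for the 1997 genes with a summit. A divergent neighbour within 1 kb, the arrangement of 48.4% of genes with a summit, was found at 9 of 140 neuropeptide genes (6.43%), against 17.2% of all protein-coding genes. The upstream neighbour itself had a summit at 9 neuropeptide genes (6.43%), against 12.4% of all genes. Within each arrangement the members' shares were as follows. Of neuropeptide genes with a divergent neighbour under 1 kb, 1 of 9 (11.1%) had a summit, against 28.1% of all such genes. With a divergent neighbour 1 kb or more away it was 0 of 39 (upper bound 8.97%), against 7.98%. With a tandem neighbour under 1 kb it was 0 of 11, against 6.22%, and 1 kb or more away 1 of 66 (1.52%), against 4.19%. Of genes that start inside another gene it was 0 of 15, against 6.76%. In all 5 arrangements the neuropeptide share was the lower, but each rests on 1 gene or none, and the part of gene spacing in the low count was not tested. Another neuropeptide gene started within 10 kb of 39 of the 140 (27.9%), so members are not fully independent.

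Other genes of the neuropeptide pathway were counted in the same way, from lists chosen with earlier results of these data known. Of 14 genes for peptide processing, 3 had a conservative summit (21.4%, interval 7.57 to 47.6%), against 10% of all protein-coding genes. They were sbt-1, which encodes the 7B2-like chaperone of the convertase EGL-3, egl-21, the carboxypeptidase that trims basic residues, and pghm-1, an amidating monooxygenase. The signal at sbt-1 was 269 (160 in replicate 1 and 93.5 in replicate 2), at 130 bp upstream of its start, in a summit shared with num-1. The signal at egl-21 was 233 (161 and 71.5), at 29 bp upstream, and that at pghm-1 was 105 (69.6 in replicate 1, absent from the thresholded list of replicate 2). The convertase gene egl-3 had none. Of 25 genes for formation, transport and release of dense core vesicles, 7 had a summit (28.0%, interval 14.3 to 47.6%; 7 in replicate 1 and 6 in replicate 2). The strongest was at vps-51, a subunit of vesicle tethering complexes, with 721 (515 and 207) in a summit shared with lin-35. The next were ric-19, the homologue of the islet autoantigen ICA69, with 346 (230 and 115) in a summit shared with pmlr-1, and unc-108, which encodes the small GTPase RAB-2, with 309 (194 and 115). The other 4 were snb-1 (synaptobrevin), ida-1, rund-1 and cccp-1, with signals from 109 to 177.

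Of 109 genes for receptors of neuropeptides and insulin-like peptides, 3 had a conservative summit (2.75%, interval 0.940 to 7.78%), against 10% of all protein-coding genes. The 3 were the G-protein-coupled receptor genes frpr-14, with a signal of 745 (500 in replicate 1 and 244 in replicate 2) in a summit shared with K07E8.7, npr-15 with 252 (175 and 65.5) and npr-23 with 179 (117 and 71.1). The insulin receptor gene daf-2 had none. Of 9 other genes listed here as peptide precursors, such as pdf-1 and daf-28, 1 had a summit (11.1%, interval 1.99 to 43.5%). It was nucb-1, a nucleobindin gene on X, with 145 (93.3 and 41.2), and the share rests on this gene alone. In the ranked list a summit was present at 42.9% of processing genes, 56.0% of vesicle genes, 12.8% of receptor genes and 11.1% of the other peptide genes, against 17.9% of the 140 precursor genes and 24.5% of all protein-coding genes. No test was made between these lists. The intervals for processing and vesicle genes lay above that for the 140 precursor genes, and the receptor interval overlapped it. The vesicle interval also lay above the share of all protein-coding genes, while the processing interval held it.

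**Figure D4:**
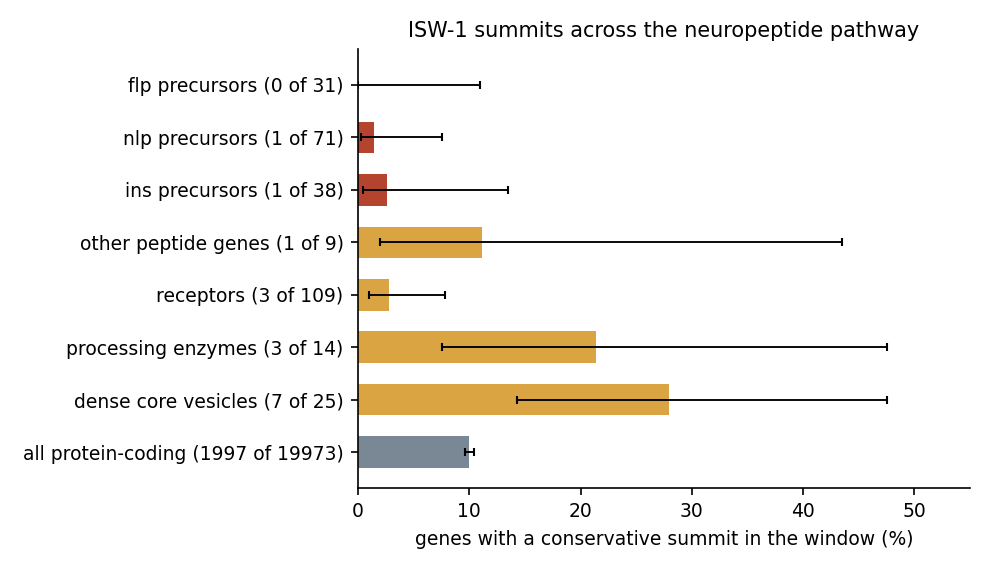
Share of genes (%, x axis) with a conservative ISW-1 summit in the promoter window for the 3 precursor families (red), other peptide genes, receptors, processing enzymes and dense core vesicle genes (yellow) and all protein-coding genes (grey), with 95% Wilson intervals. The highest share is 28.0% for vesicle genes and the lowest 0 of 31 for flp genes, against 10% of all protein-coding genes.

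The sequence around neuropeptide gene starts was described with 8 short motifs searched on both strands from 250 bp upstream to 50 bp downstream of each start. These were the repeat GAGAGAGA, the GC-rich sequence GGGCGG, the octamers TGCGTCTC and also GCGCGAAA, the homeodomain core TAATTA, the E-box CACGTG, the forkhead sequence GTAAACA and the TATA box core TATAAA. The motif GGGCGG was present in 42 of 140 neuropeptide promoters (30%, interval 23.0 to 38.0%), against 1564 of 19973 protein-coding promoters (7.83%). It was most frequent at ins genes (20 of 38, 52.6%, interval 37.3 to 67.5%), followed by nlp genes (17 of 71, 23.9%) and flp genes (5 of 31, 16.1%). On X 8 of 34 neuropeptide promoters held it (23.5%), against 8.60% of all X promoters, and on autosomes 34 of 106 (32.1%), against 7.71%. The share among neuropeptide genes with an upstream gap of 1 kb or more was 32.4%, against 9.40% of all protein-coding genes with such a gap. Neuropeptide promoters had a median GC content of 37.0%, against 34.3%, and its part in the motif's share was not tested.

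The copies were placed close to the start. Of 50 copies in the 42 promoters, 37 were on the strand opposite the gene (74%, against 63.3% of the 1743 copies in all promoters) and 13 on the gene's own strand. Of the 50, 32 were followed directly by AG, as in each of the windows printed above. From 100 to 20 bp upstream, a window chosen after the positions were seen, 33 neuropeptide promoters held a copy (23.6%), against 3.23% of all promoters. The longer sequence GGGCGGAG, which contains the first and was also chosen after the copies were seen, stood in 29 neuropeptide promoters (20.7%), against 2.40%. Examples with a copy are ins-3 and ins-4, whose peptides activate DAF-2, ins-39, whose copy lies 181 bp upstream and outside its ISW-1 peak, and flp-9, which has 2 copies. Genes of the pathway lists held GGGCGG in 0 of 14 processing promoters, 8.0% of vesicle promoters and 8.26% of receptor promoters, and in 4 of 9 promoters of other peptide genes.

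**Figure D5:**
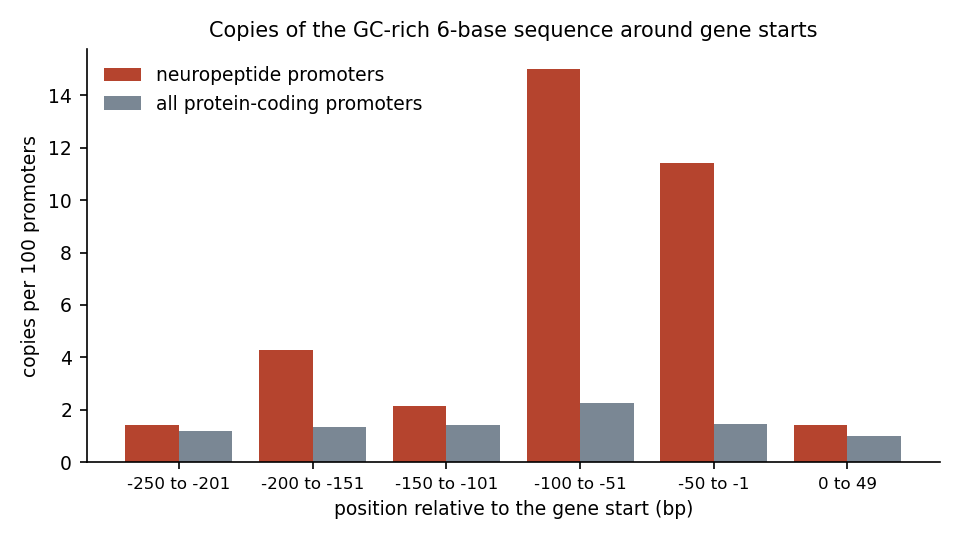
Copies of the 6-base GC-rich sequence per 100 promoters (y axis) in bins of 50 bp relative to the gene start (x axis, bp), for 140 neuropeptide promoters (red) and all protein-coding promoters (grey). Neuropeptide promoters have 15.0 and 11.4 copies per 100 in the bins from 100 bp upstream to the start, against 2.28 and 1.47 in all promoters.

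A ranked summit was present at 8 of the 42 neuropeptide genes with GGGCGG in the promoter (19%) and at 17 of the 98 without it (17.3%). Over all protein-coding genes the shares were 27.1% with the motif and 24.2% without it. By family it was present at 3 of 5 flp genes with the motif and 4 of 26 without it (15.4%), 2 of 17 nlp genes with it (11.8%) and 11 of 54 without it (20.4%), and 3 of 20 ins genes with it and 2 of 18 without it (11.1%). These counts are small, and the difference between families was not tested. Of the 42, 1 gene (ins-39, 2.38%) had a conservative summit, against 11.1% of all protein-coding genes with the motif. Among all protein-coding genes the motif stood in 8.71% of promoters with a summit and 7.83% of all promoters. A copy from 100 to 20 bp upstream went the other way, standing in 2.00% of promoters with a summit (interval 1.47 to 2.72%) and 3.23% of all promoters. Within 100 bp of summits, the motif TGCGTCTC was found at 0 of the 25 ranked summits of neuropeptide genes, against 16.4% of the 2143 conservative summits. GAGAGAGA was found at 1 of the 25 (nlp-79), against 12.6%, and GGGCGG at 3 of the 25 (flp-3, flp-27 and ins-1), against 10.4%. The 25 are mostly weak peaks and the 2143 are not, so the lists differ in signal as well. A motif match describes the letters and does not show that a factor was present.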

How the data were processed

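The data are 8 peak lists on ce11, 2 per replicate and 4 for the series, which the authors deposited. Per the labels and the deposited notes, each pair holds peaks ranked by IDR and a thresholded list. Which aligner, peak caller and control were used is not given in the sources used here. The signal values deposited by the authors are their caller's enrichment per peak, with no read counts, so depth is unknown, and the deposited −log10 columns gave the global IDR. A further 16 per-sample columns of the series' ranked lists carry no label of a replicate and were left out. Summits were set against Ensembl release 115 gene starts and the WBcel235 genome, whose chromosome lengths hold every peak, in Python 3.11.15 with pandas 2.3.3, and the window counts were tested on simulated summits. Shares have 95% Wilson intervals. With 1 condition no test was made. Members and lists were chosen with earlier results of these data known. Named genes were members with a summit in any thresholded list, up to 10 further members with the highest signal in the conservative set's ranked list, up to 3 genes of each pathway list by signal, and genes sharing a summit with them. Other genes were named after their values were seen. Of the pathway names, flr-2 matched no gene. Alternatives were another list, each replicate alone, the 1071 peaks of higher signal, narrower and wider windows, other gene starts, the nearest start alone, any overlap and no threshold.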

Additional observations from a re-analysis of the deposited data

How the results depend on the processing

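The count of 2 neuropeptide genes with a summit, nlp-4 and ins-39, was the same with the other thresholded list (against 2040 protein-coding genes), the start of any transcript (2094), any overlap of peak and window (2100) and the nearest start alone. The last lowered the share of all protein-coding genes to 6.98% (1395 genes). Leaving out a replicate gave 1 to 2 neuropeptide genes (0 to 1 nlp, 0 to 1 autosomal), because nlp-4 was absent from the thresholded list of replicate 2, and 1718 to 1961 protein-coding genes. With the 1071 peaks of higher signal, 1 neuropeptide gene remained (ins-39, with 0 nlp and 0 autosomal genes), against 1201 protein-coding genes. A window from 500 bp upstream to 250 bp downstream held 1 gene (nlp-4, with 0 ins and 0 X-linked genes), against 1619. A window from 2000 bp upstream to 1000 bp downstream held 5 (4 nlp, 2 on X and 3 on autosomes), against 2580. The 3 added were nlp-12, nlp-71 and nlp-76, whose summits lay 289 bp upstream of emr-1, 130 bp upstream of exos-2 and over a tRNA gene. With no threshold the ranked list gave 25 (7 flp, 13 nlp, 5 ins, 7 on X and 18 on autosomes), against 4885. Counts of 0 to 5 genes limit every family comparison, and unknown depth limits what a missing peak shows. No paired analysis was possible because there is 1 condition.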

Other observations

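The shares of other short sequences in neuropeptide promoters and all protein-coding promoters were counted over the same window from 250 bp upstream to 50 bp downstream of the start. TATAAA, the TATA box core, stood in 47.9% of neuropeptide promoters (67 of 140), against 37.9% of all promoters, and in 24 of 38 ins promoters. TAATTA, a core sequence bound by many homeodomain proteins, stood in 8.57% of neuropeptide promoters, against 15.5%. TGCGTCTC stood in 0.714% of neuropeptide promoters, against 3.32% of all promoters and 7.46% of promoters with an ISW-1 summit. These shares are descriptions, with no test.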
